A study of Mus musculus with 6 samples.

Results

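The acute phase proteins described here are 10 mouse genes of the plasma protein response to injury and infection, chosen by their symbols from the 34685 genes that carry one in the deposited normalized table, and followed through their raw counts. They are Saa1, Saa2, Orm1, Orm2, Hp, Hpx, Apcs and Itih4, whose messages are made mainly by hepatocytes, and Saa3 and Lcn2, which other cells also make. All 10 passed the filter on low counts that kept 15374 of 55536 genes. The RNA came from tumors of HCA-1, a murine hepatocellular carcinoma (HCC) line, implanted under the liver capsule of male C3H mice (C3H/HeNCrNarl in the study's methods) aged 6 to 8 weeks. The 3 control tumors were labelled untreated (controls 5, 6 and 7), and the 3 treated tumors (1, 2 and 5) came from mice given GOx-DOX-LGP intravenously, a lipid, gelatin and protamine nanogel that carries glucose oxidase (GOx) and doxorubicin (DOX). The labels give dosing on days 18, 19 and 20 but place the transcriptome at day 17 after 3 h of circulation, whereas the study's methods for tumor RNA under the same dosing describe harvest on the day after the last dose, so the interval between dose and sampling is uncertain. Values per library are listed throughout in the order of the replicate numbers, 5, 6 and 7 for the controls and 1, 2 and 5 for GOx-DOX-LGP. All 6 tumors share the implanted line and the host strain, and a piece of an orthotopic tumor can hold host liver. Replicates carry separate numbers, but no label ties them to separate mice, so the p-values measure the spread between these libraries.

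During the acute phase response, interleukin 6, interleukin 1 and related cytokines act on hepatocytes through STAT3, NF-kappaB and C/EBP factors and raise the output of a set of plasma proteins, while albumin and transthyretin decline. The serum amyloid A proteins Saa1 and Saa2 are the members with the widest range in mouse liver, whereas hemopexin, inter-alpha-trypsin inhibitor heavy chain 4 and haptoglobin are already abundant in resting liver. Saa3 is known from macrophages and adipocytes, and Lcn2, an iron-siderophore binding protein, from neutrophils, epithelia and stressed tumor cells.

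The sequences shown are those just upstream of the serum amyloid A genes and Orm2, because Saa1, Saa2 and Orm2 set themselves apart from the other liver-made members in control 6, and Saa3 is their relative outside the liver. Upstream windows from RefSeq on GRCm38.p6 were matched for 8 of the 10 members. Each line runs 5′ to 3′ toward the start of the gene and ends where the GENCODE M21 gene model begins, and capitals mark a match to the C/EBP letters TTGCNNAA on either strand.
Saa1, chr7:46742981-46743230, minus strand: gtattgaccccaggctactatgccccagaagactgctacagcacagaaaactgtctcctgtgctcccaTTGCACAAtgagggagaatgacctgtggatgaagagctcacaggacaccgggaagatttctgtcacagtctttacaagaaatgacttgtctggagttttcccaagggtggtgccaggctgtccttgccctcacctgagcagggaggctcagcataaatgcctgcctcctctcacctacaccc
Saa2, chr7:46751583-46751789, plus strand: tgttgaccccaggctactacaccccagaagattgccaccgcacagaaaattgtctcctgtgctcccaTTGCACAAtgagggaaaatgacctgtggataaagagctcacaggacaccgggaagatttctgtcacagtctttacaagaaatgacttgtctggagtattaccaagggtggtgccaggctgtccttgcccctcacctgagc
Saa3, chr7:46715701-46715926, minus strand: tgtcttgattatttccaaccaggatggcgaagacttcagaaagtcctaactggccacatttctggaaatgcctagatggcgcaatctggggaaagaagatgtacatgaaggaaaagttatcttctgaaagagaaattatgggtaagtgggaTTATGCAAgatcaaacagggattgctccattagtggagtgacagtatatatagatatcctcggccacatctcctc
Orm2, chr4:63362199-63362448, plus strand: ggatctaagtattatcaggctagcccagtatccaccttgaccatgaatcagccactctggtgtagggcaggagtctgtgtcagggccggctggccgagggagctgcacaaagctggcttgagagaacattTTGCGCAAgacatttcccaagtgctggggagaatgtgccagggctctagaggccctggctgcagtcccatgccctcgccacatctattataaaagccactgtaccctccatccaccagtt
Saa1 and Saa2 lie head to head on chromosome 7, and their 250 base windows were 94.8% identical after alignment, against 52.5% for Saa1 and Saa3. The C/EBP letters occurred in 6 of the 8 windows (Saa1, Saa2, Saa3, Orm2, Hpx and Lcn2), against 9.56% of 32851 windows of the same length. The windows of Saa1 and Saa2 are near copies and so are not separate cases. That of Lcn2, placed by its RefSeq start, lies inside the GENCODE M21 gene model. In Saa1 the match ran from base -182 to -175 and in Saa2 from -183 to -176, counted from the RefSeq start. The STAT letters TTCNNNGAA occurred in Apcs and Itih4, against 7.02% of all windows, and the NF-kappaB consensus in 0 of the 8, against 7.25%. These are matches of letters in a short window and say nothing of binding.

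Close copies limit how far the reads can be assigned within these families. Of the stretches of 50 bases in the transcripts of Saa1, 31.1% also occurred in those of Saa2, and 20.4% of those of Orm1 occurred in Orm2. The annotated exons of Saa1, 2478 bases, cover nearly the whole gene, so its share counts sequence that a spliced message may lack. The share within the spliced message was not computed and can be higher. How reads in such stretches were divided is not given in the sources used here, so the split between Saa1 and Saa2 and between Orm1 and Orm2 is uncertain. No exon of a member overlapped another gene's exon.

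The libraries held 15529940 to 18401178 counted reads, and control 5 stood apart from the other controls. Across genes, the Pearson correlation of log2 CPM (read counts normalised to library size, with the trimmed mean of M values, TMM, as the scaling) was 0.969 between controls 6 and 7, but 0.730 and 0.659 between control 5 and these libraries, and 0.966 to 0.975 between control 5 and the treated libraries. The 12 hepatocyte markers, led by Cps1, Ass1, Cyp2e1 and Cyp3a11, followed the same division. They averaged 2.53, 10.87 and 11.78 log2 CPM in the controls and 5.19, 3.59 and 4.27 in the treated tumors, with none of the 12 at 0 in any library. An exchange of labels and a tumor piece with little host liver cannot be told apart here for control 5. The fitted change of each member is therefore given with control 5 and without it. Control 5 was singled out from these same values, hepatocyte genes among them, and edgeR called 7745 of 16249 genes once it was left out. The p-values without control 5 thus depend on a choice made from the data and describe the remaining libraries only.

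The 8 liver-made acute phase genes took 1 order across the 6 tumors. Each was lowest in control 5, intermediate in the GOx-DOX-LGP libraries and highest in controls 6 and 7, so the groups overlapped for all 8. The same order held for 11.6% of the genes kept, and for 0 of the pair Saa3 and Lcn2. In bulk tumor RNA, fewer hepatocytes and less message per hepatocyte cannot be told apart, and the part of the hepatocyte markers in the result was not tested.

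**Figure D1:**
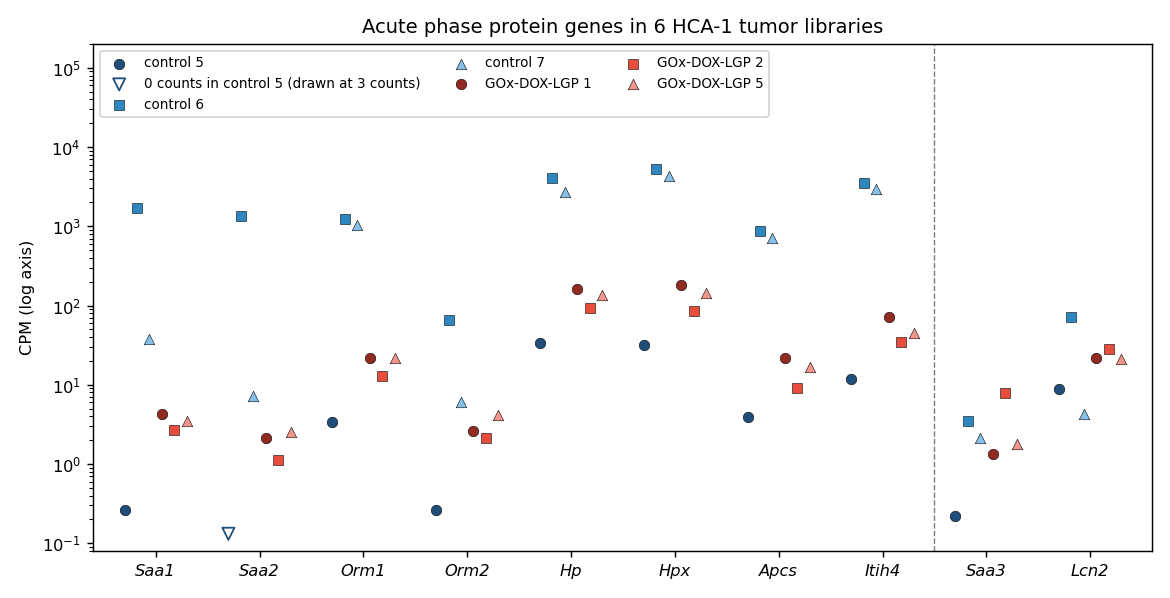
CPM of each gene (log axis) in the 3 control and 3 GOx-DOX-LGP libraries, 1 point per library, with the liver-made genes left of the dashed line. For all 8 of them control 5 lies below every treated library and controls 6 and 7 lie above, whereas Saa3 is highest in GOx-DOX-LGP 2 and Lcn2 in control 6.

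Hpx and Hp, the plasma carriers of free heme and free hemoglobin, were the most abundant members per length in the treated tumors. Hpx, ENSMUSG00000030895, at chr7:105591613-105600137 on the minus strand of GRCm38, measured 31.7, 5333 and 4305 CPM in the controls and 182, 86.1 and 143 CPM in the treated tumors. Hp, ENSMUSG00000031722, at chr8:109575128-109579172 on the minus strand, measured 33.7, 4059.7 and 2688 CPM in the controls and 162, 92.4 and 136 CPM after treatment. The treated libraries thus sat a few times above control 5 and far below the other controls for both genes. The fitted log2 fold change of GOx-DOX-LGP against control was -4.56 ± 1.61 (SE) for Hpx and -4.12 ± 1.48 for Hp, with adjusted p = 0.249 and 0.252 in edgeR's quasi-likelihood test with Benjamini-Hochberg adjustment, so neither passed 0.05. Without control 5 the values were -5.11 ± 0.426 and -4.66 ± 0.384, with edgeR adjusted p = 0.000114 and 0.000109.

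Apcs, Itih4 and Orm1 followed Hpx closely. Apcs encodes serum amyloid P component, a pentraxin, and lies at chr1:172893961-172895041 on the minus strand (ENSMUSG00000026542). It measured 3.95, 863 and 713 CPM in the controls and 21.7, 9.06 and 16.6 CPM in the treated libraries. Itih4, a heavy chain of the inter-alpha-trypsin inhibitor family at chr14:30886476-30902353 on the plus strand (ENSMUSG00000021922), measured 11.8, 3524 and 2962 CPM in the controls against 72.1, 35.0 and 45.4 CPM. Orm1, which encodes the drug- and lipid-binding alpha-1-acid glycoprotein, lies at chr4:63344560-63348163 on the plus strand (ENSMUSG00000039196) and measured 3.38, 1251 and 1029 CPM against 22.04, 12.7 and 21.6 CPM. In all 3 genes GOx-DOX-LGP 2 was the lowest treated library, as it was for the hepatocyte markers, and controls 6 and 7 lay close together. The fitted log2 fold changes were -5.06 ± 1.67, -5.41 ± 1.78 and -5.34 ± 1.78 (SE), each with an edgeR adjusted p of 0.247. Without control 5 they were -5.61 ± 0.404, -5.96 ± 0.418 and -5.89 ± 0.344, with edgeR adjusted p = 7.23e-05, 6.81e-05 and 5.04e-05.

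Saa1, Saa2 and Orm2 were high in a single control. Saa1 (ENSMUSG00000074115, chr7:46740497-46742980, minus strand) and Saa2 (ENSMUSG00000057465, chr7:46751790-46754313, plus strand) encode the inducible serum amyloid A carried on high-density lipoprotein. Saa1 measured 0.263, 1724 and 37.6 CPM in the controls and 4.25, 2.69 and 3.54 CPM in the treated tumors. Saa2 measured 0, 1344 and 7.32 CPM against 2.13, 1.13 and 2.55 CPM, and its 0 counts in control 5 allow up to 0.132 CPM, the worth of 3 counts. Control 6 alone carried these messages at a high level, and control 7, the library richest in hepatocyte markers, stood only a few times above the treated tumors for Saa2. The second alpha-1-acid glycoprotein gene, Orm2 (ENSMUSG00000061540, chr4:63362449-63365878, plus strand), measured 0.263, 65.9 and 6.13 CPM against 2.62, 2.11 and 4.11 CPM. It showed the same single high library, control 6, with control 7 near the treated range. The fitted log2 fold changes were -7.39 ± 2.72, -7.86 ± 3.22 and -3.03 ± 1.60 (SE) for Saa1, Saa2 and Orm2, with edgeR adjusted p = 0.256, 0.285 and 0.361. Without control 5 they were -7.95 ± 1.40, -8.42 ± 1.77 and -3.59 ± 0.838, with edgeR adjusted p = 0.00358, 0.00755 and 0.0114, and in that fit the control mean rests mostly on control 6. Without control 6 the fitted log2 fold changes were -2.44 for Saa1, -0.89 for Saa2 and -0.09 for Orm2, with edgeR adjusted p = 0.665, 0.860 and 0.981, while those of Orm1, Hp, Hpx, Apcs and Itih4 ran from -4.88 to -3.40.

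Saa3 and Lcn2 did not share this order. Saa3 (ENSMUSG00000040026, chr7:46711998-46715700, minus strand) measured 0.219, 3.48 and 2.15 CPM in the controls and 1.34, 7.79 and 1.77 CPM in the treated libraries, from 5 to 159 reads. GOx-DOX-LGP 2 was the highest library and control 5 the lowest, and the other treated libraries lay between the controls. Lcn2 (ENSMUSG00000026822, chr2:32384633-32388252, minus strand) measured 8.82, 72.6 and 4.30 CPM in the controls and 22.04, 28.02 and 20.97 CPM after treatment. The treated libraries were close to each other, at 23.7 ± 3.80 CPM (SD, n = 3), above controls 5 and 7 and below control 6. The fitted log2 fold change was 0.93 ± 1.08 (SE) for Saa3 and -0.27 ± 0.99 for Lcn2, with edgeR adjusted p = 0.626 and 0.881, and under scaling by library totals alone the value of Lcn2 was 0.35. Without control 5 the values were 0.39 ± 0.793 and -0.68 ± 0.852, with edgeR adjusted p = 0.706 and 0.538. Single libraries set both signs, since Lcn2 measured 1.84 without control 6 and Saa3 measured -0.28 without GOx-DOX-LGP 2.

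Across all 6 libraries, edgeR's quasi-likelihood test called 0 of the 10 members and 0 of the 15374 genes (0.0%), the lowest adjusted p over all genes being 0.247. At an unadjusted p under 0.05, 7 members were lower in GOx-DOX-LGP, all liver-made, against 14.6% of all genes. DESeq2 on the same genes called 5 members lower (Orm1, Hp, Hpx, Apcs and Itih4, adjusted p from 0.00200 to 0.0118), against 8.93% of genes called lower, and its outlier filter left Saa1 and Saa2 with no p. Without control 5, edgeR called all 8 liver-made members lower and neither Saa3 nor Lcn2, against 25.5% of 16249 genes called lower and 22.2% called higher. DESeq2 without control 5 (26.3% of genes lower) and limma voom on all libraries (30.9% lower) each called the same 8 members. The voom fit gave each library a quality weight, so the libraries need not count equally, and the weights were not examined. It called 9254 of the 15374 genes. Its median over the 8 liver-made members was -5.52, against -5.75 in edgeR without control 5 and -5.20 in edgeR with all libraries. The exact permutation test over libraries, two-sided, gave p from 0.4 to 0.7 for the 10 members, where 3 against 3 libraries can reach 0.1. The median fitted log2 fold change was -5.20 over the 8 liver-made members and 0.33 over Saa3 and Lcn2, beside 0.02 over all genes kept, and scaling by library totals alone moved the median of all genes to 0.51.

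With the hepatocyte marker mean of each library added to the edgeR model, an alternative chosen after the data were seen, the fitted log2 fold changes of the 8 liver-made members lay between 0.26 and 1.48. That of Saa3 was 2.90 ± 1.37 (SE) and that of Lcn2 0.82 ± 1.07, and the lowest edgeR adjusted p among the 10 was 0.798. The 5 genes Hpx, Hp, Apcs, Itih4 and Orm1 had standard errors of 0.374 to 0.467 in this model, while those of Saa1, Saa2 and Orm2 were 2.11, 3.27 and 1.45.

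**Figure D2:**
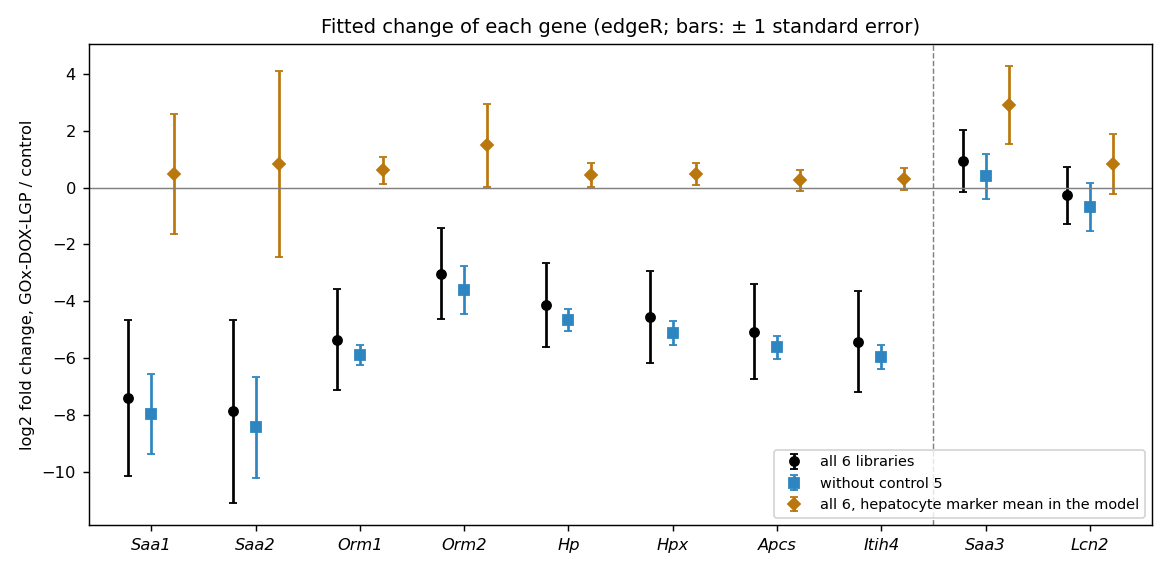
Fitted log2 fold change of each gene, GOx-DOX-LGP against control, with 1 standard error either side, from edgeR on all 6 libraries, without control 5, and with the hepatocyte marker mean in the model. The liver-made genes lie between -3.03 and -7.86 with all libraries and between 0.26 and 1.48 with the marker mean, and leaving out control 5 narrows the bars.

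Controls 6 and 7 separated the liver-made genes into a steady and a variable set. Both tumors were rich in hepatocyte markers, with the 12 markers at a median of 0.84 log2 units lower in control 6. The steady set differed little between them in CPM, although each of its genes was higher in control 6 relative to the marker mean. Ratios of CPM in control 6 to control 7 were 1.22 for Orm1, 1.24 for Hpx, 1.21 for Apcs, 1.19 for Itih4 and 1.51 for Hp. The ratio was 184 for Saa2, 45.9 for Saa1 and 10.7 for Orm2, and 16.9 for Lcn2, while Saa3 measured 1.62. Of the 15374 genes kept, Saa2 and Saa1 ranked 1 and 2 by this log2 difference, Lcn2 ranked 14 and Orm2 ranked 44. Each tumor is a single library, so this difference has no replicate check and no test. Among the 25 other positive acute phase genes the log2 difference ran from -0.77 to 1.97 with a median of -0.29, and Fgl1, a hepatocyte-secreted fibrinogen-like protein named after its values were seen, gave the highest value.

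**Figure D3:**
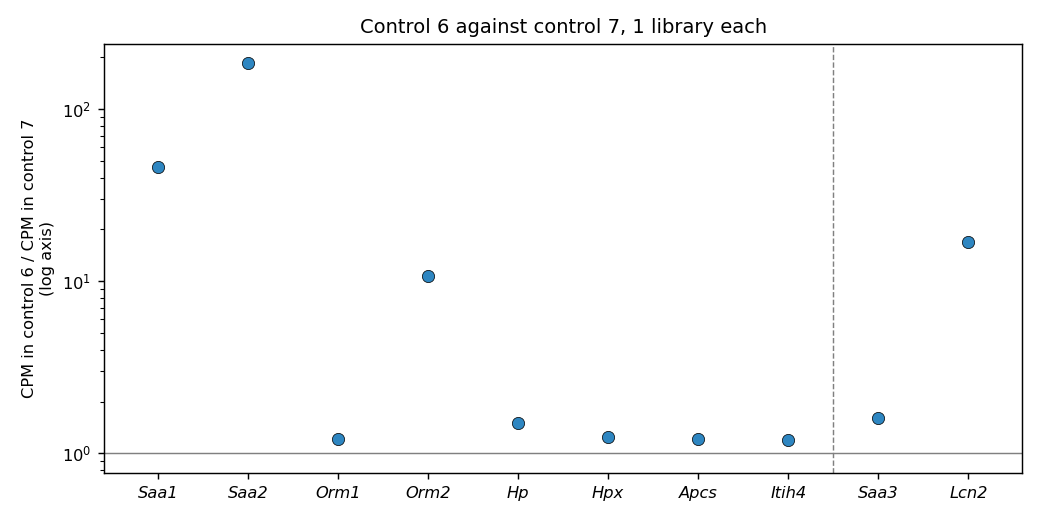
Ratio of CPM in control 6 to CPM in control 7 (log axis) for each gene, 1 library each and so without error bars. Saa1, Saa2, Orm2 and Lcn2 lie between 10.7 and 184, and the other 6 genes between 1.19 and 1.62.

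Set against Hpx in the same library, the liver-made genes kept different proportions. Saa1 counted 0.830, 32.3 and 0.872 reads per 100 reads of Hpx in the controls and 2.33, 3.13 and 2.48 in the treated tumors. Saa2 counted 0, 25.2 and 0.170 against 1.17, 1.31 and 1.79. Control 6 was again far above the rest, and the treated libraries lay above control 7 although their Hpx was much lower. Within the Orm pair, Orm2 counted 7.79, 5.27 and 0.596 reads per 100 of Orm1 in the controls and 11.9, 16.5 and 19.0 in the treated libraries, which did not overlap. How many other pairs of genes separate in this way was not computed. Apcs counted 12.4, 16.2 and 16.6 reads per 100 of Hpx in the controls and 10.5 to 11.9 after treatment, and Orm1 10.7, 23.5 and 23.9 against 12.1 to 15.2. For these pairs control 5 lay near the treated libraries and apart from the hepatocyte-rich controls. The counts of control 5 behind these proportions are small, with 6 reads of Saa1 and of Orm2, 77 of Orm1 and 723 of Hpx.

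Relative to the hepatocyte markers, the treated libraries stood above controls 6 and 7 for all members but Saa1, Saa2 and Orm1. On the scale of log2 CPM minus the mean log2 CPM of the 12 markers, Hpx measured 2.46, 1.51 and 0.29 in the controls and 2.32, 2.84 and 2.89 in the treated tumors. Orm2 measured -3.93, -4.82 and -9.14 against -3.74, -2.44 and -2.19. It was the only member of the 10 whose groups did not overlap on this scale, and its lowest treated value lay close above control 5, a library with 6 reads of Orm2. The share of all genes without overlap on this scale was not computed, so the separation of Orm2 has no background to be read against. Saa1 measured -3.93, -0.12 and -6.54 against -3.06, -2.10 and -2.40, so control 6 stayed above all treated libraries there. Lcn2 measured 0.63, -4.68 and -9.64 against -0.72, 1.22 and 0.13, with control 5 inside the treated range.

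**Figure D4:**
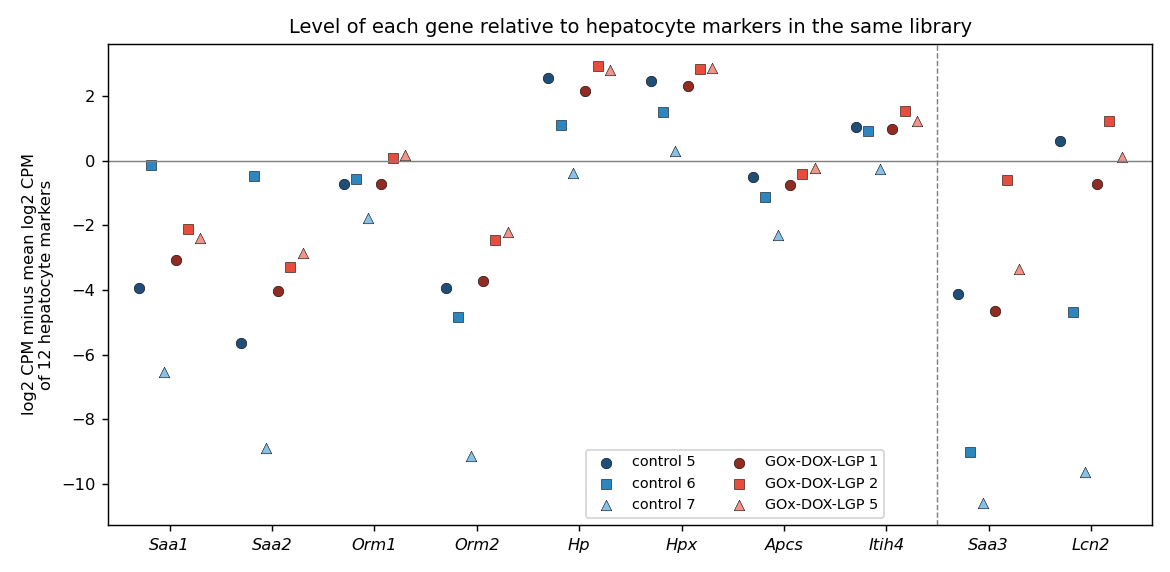
Level of each gene as log2 CPM minus the mean log2 CPM of 12 hepatocyte markers in the same library, 1 point per library. Control 7 is the lowest library for all 10 genes, and for Orm2 alone the 3 treated points, from -3.74 to -2.19, lie above every control.

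Whether Saa3 and Lcn2 behaved differently from the liver-made members was tested on the log2 ratio of each to each liver-made gene within a library, 16 pairs in all. The mean ratio was higher in GOx-DOX-LGP in all 16 pairs, by 1.60 (Lcn2 to Orm2) to 4.35 (Saa3 to Itih4) log2 units. For Lcn2 to Hpx the ratio was -1.83, -6.20 and -9.93 in the controls and -3.04, -1.62 and -2.76 in the treated libraries. Control 5 fell inside the treated range in this pair, and the groups overlapped in all 16. The two-sided exact permutation p ran from 0.2 to 0.4, each 0.4 after Benjamini-Hochberg adjustment over the 16, but 3 libraries against 3 cannot go below 0.1, so this test could not have passed 0.05 and does not answer the question. Without control 5, the treated libraries lay above both remaining controls in all 16 pairs, which was not tested. All 8 denominators were themselves higher in controls 6 and 7 than in every treated library, and the pairs reuse the same 2 numerators. This count therefore does not by itself describe Saa3 and Lcn2, and the share of other genes that separate in this way was not computed.

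Per length of annotated exon, the order of the members in the treated tumors was Hpx and Hp, then Orm1, Apcs and Itih4, then Lcn2, Orm2, Saa1, Saa3 and Saa2. In CPM per kilobase of annotated exon (FPKM), Hpx ranged from 57.5 to 122 and Hp from 57.6 to 101 over the 3 libraries, so these neighbours overlapped. Orm1 ranged from 16.4 to 28.4, Apcs from 9.33 to 22.3 and Itih4 from 9.48 to 19.5, again with overlap. Lcn2 was at 7.99 to 10.7, which overlapped Apcs and Itih4, and lay above Orm2 at 2.72 to 5.30. The lowest members were Saa1 at 1.09 to 1.72, Saa3 at 0.512 to 2.99 and Saa2 at 0.448 to 1.01, of which Saa3 overlapped both others. Saa3 also overlapped Orm2, and in GOx-DOX-LGP 2 it stood above Orm2, at 2.99 against 2.72. In control 6, by contrast, Saa1 reached 696 and Saa2 534, above Lcn2 at 27.7 and below Apcs at 889. The annotated exons of Saa1 and Saa2, 2478 and 2518 bases, cover nearly the whole gene. Those of Saa3 and Lcn2 total 2606 and 2623 bases, and those of Apcs 971. Shorter spliced messages would raise the FPKM of these genes, so their place in this order depends on the annotation.

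The other positive acute phase genes had fitted values close to those of the liver-made members. Of 25 on the list, all kept, 24 had a fitted log2 fold change below 0, against 48.9% of all genes, with a median of -5.27. With all libraries edgeR called 0, with 19 lower at an unadjusted p under 0.05 (14.6% of all genes). DESeq2 called 18 lower (8.93% of all genes) and edgeR without control 5 called 23 (25.5%), leaving A2m and Cfb, both named after their values were seen. Crp, a pentraxin like Apcs, measured 1.84, 430.3 and 552 CPM in the controls and 6.57, 3.82 and 3.95 CPM in the treated libraries. The fibrinogen chains Fga, Fgb and Fgg had fitted log2 fold changes of -5.27, -5.36 and -5.21, and of -5.82, -5.91 and -5.76 without control 5. These genes were higher in control 7 than in control 6, the reverse of all 10 members.

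The negative acute phase genes are those that decline in liver during the response. All 10 had a fitted log2 fold change below 0, against 48.9% of all genes, with a median of -5.35. With all libraries edgeR called 0 of them (adjusted p from 0.247 to 0.265), with 10 lower at an unadjusted p under 0.05, against 14.6% of all genes. The groups overlapped for all 10, while 8.31% of all genes were lower without overlap. DESeq2 (8.93% of all genes lower) and edgeR without control 5 (25.5%) each called all 10 lower. Alb, which encodes albumin, measured -5.78 ± 2.20 (SE), and Ttr, Trf and Rbp4, the carriers of thyroxine, iron and retinol, measured -5.35, -4.23 and -5.47. Without control 5 these 4 values were -6.33, -5.90, -4.77 and -6.02. The 12 hepatocyte markers had a median of -6.32, so these genes, the markers and the liver-made members all had fitted values of the same sign.

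The cytokines and signalling genes that drive the response showed no common direction. Of 19 kept of 20, 13 had a fitted value above 0 and 6 below, with a median of 0.48, and edgeR called 0 with all libraries, with 3 lower and 2 higher at an unadjusted p under 0.05, against 14.6% and 2.87% of all genes. Osm, which encodes oncostatin M, a cytokine of the interleukin 6 family, measured 2.11, 0.678 and 0.538 CPM in the controls and 3.16, 5.29 and 5.05 CPM in the treated tumors. Its groups did not overlap, and its log2 fold change was 1.96 ± 0.594 (SE), with adjusted p = 0.247 in edgeR and 0.0224 in DESeq2, and 2.89 ± 0.468 without control 5. DESeq2 called 1 of the list higher, Osm, and 1 lower, Il1rap, against 0.93% and 8.93% of all genes. Il1rap, the accessory chain of the interleukin 1 receptor, was named after its values were seen. Its DESeq2 log2 fold change was -3.03, with DESeq2 adjusted p = 0.00524. The treated groups were higher without overlap for 5 of the 19 and lower for 3, against 8.87% and 8.31% of all genes. Il6 measured 0.877 CPM in control 5, 0 in controls 6 and 7, and 1.09, 0.931 and 0.520 CPM in the treated libraries, so control 5 sat among the treated tumors. Il1b measured 23.03, 5.26 and 3.44 CPM against 15.5, 21.2 and 40.1 CPM, again with control 5 inside the treated range, and Tnf measured 2.98, 2.04 and 0.646 CPM against 2.92, 2.50 and 2.65 CPM. Without control 5, edgeR called 8 of the 19 higher, Il6, Il1b and Osm among them, and 4 lower, against 22.2% and 25.5% of all genes. Among the genes outside the naming rule, Socs3, the feedback inhibitor induced by STAT3, measured 63.5, 23.2 and 13.5 CPM against 81.5, 85.4 and 79.2 CPM and was named after its values were seen.

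Receptors and partners of the acute phase proteins were mixed. Of 10 genes, 7 had a fitted value above 0 and 3 below, with a median of 0.69, and edgeR called 0, with 1 lower and 2 higher at an unadjusted p under 0.05, against 14.6% and 2.87% of all genes. Without control 5, edgeR called 1 lower and 4 higher, against 25.5% and 22.2%. The treated libraries were higher without overlap for 3 of the 10 and lower for 1, against 8.87% and 8.31% of all genes. DESeq2 called 1 of the 10, which was lower, against 8.93% of all genes called lower. It was Scarb1, the high-density lipoprotein receptor, named after its values were seen. Fpr2, a formyl peptide receptor that binds serum amyloid A, measured 5.31, 3.22 and 3.98 CPM in the controls and 5.73, 7.64 and 9.78 CPM after treatment, without overlap, and its log2 fold change was 0.88 ± 0.343 (SE), with an edgeR adjusted p of 0.269, and 1.13 ± 0.347 with 0.0319 without control 5. Slc22a17, a receptor of lipocalin 2, measured 1.32, 1.36 and 1.29 CPM against 0.494, 0.980 and 0.676 CPM, also without overlap, and its log2 fold change was -0.88, with an edgeR adjusted p of 0.302, and -0.85 with 0.184 without control 5. Cd163, the macrophage receptor for complexes of haptoglobin and hemoglobin, measured 4.21, 51.6 and 17.6 CPM against 5.49, 19.5 and 6.24 CPM, and Lrp1, which takes up heme with hemopexin, had a log2 fold change of 0.13 and of 0.35 without control 5.

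Of the other cells that make Saa3 and Lcn2, macrophages were represented by their markers in all tumors, and neutrophils and adipocytes less fully. Macrophage markers had a mean log2 CPM of 5.55, 6.07 and 5.53 in the controls and 5.68, 6.67 and 5.96 in the treated tumors, so the highest library was GOx-DOX-LGP 2, which was also highest for Saa3. Lyz2 measured 759.6, 436 and 288 CPM in the controls against 739, 2262 and 989 CPM. Of the 11 macrophage markers none was at 0 in any library, and 9 had a fitted value above 0. Without control 5, edgeR called 6 of the 11 higher and 2 lower, against 22.2% and 25.5% of all genes. Neutrophil markers were sparse, with 6 of 11 kept and 5 of the 11 at 0 in control 6, the library highest for Lcn2. Their summed level was 8.82 to 22.9 CPM in the controls and 20.7 to 78.3 CPM in the treated libraries, and it was highest in GOx-DOX-LGP 5. The 9 epithelial and tumor markers had a median fitted log2 fold change of 0.33. Without control 5, edgeR called 3 of them higher and 2 lower, against 22.2% and 25.5% of all genes. Their summed level was 7980, 1379 and 941 CPM in the controls and 8203, 5867 and 7037 CPM in the treated tumors. By this sum control 5 lay inside the treated range, and controls 6 and 7 lay below it. Their mean log2 CPM differed less, from 4.71 in control 7 to 5.34 in GOx-DOX-LGP 1. The sum weights abundant genes most. Of the 5 adipocyte markers only Fabp4 was kept, and 2 were at 0 in every library but GOx-DOX-LGP 5. The part of these cells in the levels of Saa3 and Lcn2 was not tested.

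The genes whose log2 CPM was most like that of a member over the 6 libraries differed between the 3 members compared. For Saa1 they were 2810013P06Rik, Tmod4 and Saa2, with Pearson r of 0.999, 0.988 and 0.987. For Saa3 they were Borcs7, Cd47 and Cetn2 (0.984, 0.983 and 0.982), and for Lcn2 they were 2510017J16Rik, Prph and Camk2b (0.990, 0.971 and 0.966). Of the 15374 genes kept, 107 exceeded 0.9 with Saa1, 63 with Saa3 and 32 with Lcn2. Control 6 was the highest library for Saa1 and for all 3 of its nearest genes.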

How the data were processed

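Tumor RNA was measured by mRNA sequencing (KAPA mRNA HyperPrep) in 6 libraries, 1 per sample. The authors deposited raw read counts per Ensembl gene, and a second table in which the deposited signal is those counts divided by 1 size factor per library. Only its gene symbols were used here, and the size factor of each library was recovered from the ratio of the tables. The study's methods name TopHat and HTSeq, while the submitters' processing notes name Trimmomatic 0.38, HISAT2 2.1.0 and featureCounts 2.0.0. The genome build, the use of strand and the handling of reads that match several genes are not given in the sources used here. Gene positions are from GENCODE M21 and upstream windows from RefSeq, both GRCm38.

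After filterByExpr and TMM scaling, counts entered the quasi-likelihood test of edgeR 4.0.16 in R 4.3.3 (groups only, Benjamini-Hochberg over all 15374 genes, threshold 0.05). Each edgeR standard error was derived from that test, as the absolute log2 fold change divided by the square root of its F statistic. The tests were first run on simulated data. Alternatives used DESeq2 1.42.0, limma 3.58.1 (voom with quality weights), other scalings and filters, and each library left out in turn. Single values and ratios used log2 CPM with a prior count of 2 and exact permutation tests (scipy 1.17.1). CPM in the text has no prior count. Totals of 15529940 to 18401178 reads set the limit that 0 counts allow at 0.132 to 0.323 CPM (3 counts), which covers counting error only.

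The members and lists were chosen with earlier results of these data known. Genes named are the 10 members, the first 4 kept genes of each other list, and the 3 genes with the highest Pearson r with Saa1, Saa3 and Lcn2. Others are said to be chosen after their values were seen.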

Additional observations from a re-analysis of the deposited data

How the results depend on the processing

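The fitted log2 fold changes of the 8 liver-made members stayed below 0 under every filter, scaling, test and left-out library tried (-0.09 for Orm2 without control 6 being the nearest to 0), and lay above it only with the hepatocyte marker mean in the model. There the values were 0.48 for Saa1, 0.82 for Saa2, 0.60 for Orm1, 1.48 for Orm2, 0.45 for Hp, 0.48 for Hpx, 0.26 for Apcs, 0.29 for Itih4 and 0.82 for Lcn2, the median of the liver-made members was 0.48, and 0 members were below 0. The other sign changes were Saa3 at -0.83 under voom and at -0.28 without GOx-DOX-LGP 2, and Lcn2 at 0.35 with library totals alone and at 1.84 without control 6; their cause was not tested. Over the left-out libraries, Saa3 ran from -0.28 to 1.68 and Lcn2 from -0.79 to 1.84. Members past the threshold numbered 0 with edgeR, 5 with DESeq2, 8 with voom and 8 without control 5 in both edgeR and DESeq2. Other genes of the response numbered 0, 31 with DESeq2, 53 with voom, 50 without control 5 and 52 without it in DESeq2. Over the left-out libraries, members past the threshold ranged from 0 to 8, the other genes from 0 to 50, and members below 0 from 8 to 10, and the median of the liver-made members ran from -5.75 to -3.70 and that of Saa3 and Lcn2 from -0.33 to 1.76. Pairs with the treated libraries above every control numbered 0, 2 with a prior count of 0.5, and 0 to 16 over the left-out libraries, with 16 without control 5 and 4 without GOx-DOX-LGP 1. Over all genes, edgeR called 0 of 15374, DESeq2 1516, voom 9254, and edgeR without control 5 called 7745 of 16249. No paired analysis was possible because the groups share only 1 replicate number. Saa3 rested on 5 to 159 reads a library.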
